A study of Mus musculus with 24 samples.

Results

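The comparison described here set 3 arrays of 4T1 cells kept for 11 days with lactic acid against 3 control arrays, 6 of the 24 arrays of the series, over all 19938 genes that could be named. 4T1 is an established mouse mammary carcinoma line that grows in culture. Controls were held in RPMI-1640 with 3 mM glucose, without lactic acid. The treated cultures received that medium and glucose plus 20 mM lactic acid. Total RNA was hybridised as biotin-labelled cRNA to single-channel Affymetrix arrays, and the aim was to find genes, by time, behind longer survival of glucose-starved cells given lactic acid. The 18 other treated arrays, taken on days 1, 3, 4, 5, 7 and 9 with the same glucose and lactic acid, entered the estimate of the spread, and those of days 3 to 9 served for comparisons that did not use the control. The titles call the replicates biological, but nothing says whether they came from separate cultures, so a p-value here reflects only how far arrays of 1 group spread, which may be technical. How long the control cells had been cultured is not stated, nor is the acidity of either medium. Lactic acid, its acidity and 11 days in culture therefore cannot be told apart in any difference from control. In RNA from whole cultures, fewer cells that express a gene and less of its RNA per cell cannot be told apart either.

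Lactate is made from pyruvate when sugar is broken down without respiration, and many cells can take it up again through monocarboxylate transporters, oxidise it back to pyruvate and burn it in mitochondria. Lactic acid also acidifies the medium, and acid, low glucose and crowding are all known to slow division, to switch on stress pathways of the endoplasmic reticulum (ER) and amino acid supply, and to raise recycling through lysosomes. Dividing cells switch on the genes of DNA replication in S phase and those of the mitotic spindle in G2 and M phase, so the amounts of these RNAs follow the share of cells that cycle.

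Each value is a log2 signal, so a difference of 1 is a 2-fold change. A gene was called higher or lower where limma's moderated test, fitted over all 24 arrays, gave an adjusted p below 0.05 over all genes. Errors of changes are standard errors (SE) of that fit, and errors of means are SDs of 3 arrays. Array medians over genes lay between 5.02 and 5.16 in these 6 arrays, and each array had a median correlation of 0.9953 to 0.9964 with its own group. The median SD between replicates was 0.11 in both control and day 11, against 0.28 on day 1 and 0.17 on day 9. Markers of other cell types were mostly dim. None of 14 leukocyte, 10 endothelial and 7 adipocyte markers passed, and their mean level per array lay between 3.56 and 3.88 in control and between 3.50 and 3.81 on day 11. Of 10 fibroblast markers the 2 platelet-derived growth factor receptors Pdgfra and Pdgfrb rose and 8 did not pass, the collagens Col1a1, Col1a2 and Col3a1 among them. The mean level of these 10 markers was 4.37 to 4.49 per control array and 4.69 to 4.76 per day 11 array, and the part of fibroblast-like cells in any result was not tested. Of 10 epithelial markers, Krt8 (control mean 11.12) and Krt18 (11.05) were bright, whereas the surface marker Epcam (4.12) lay below every control array's median.

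Day 11 differed from control in 5143 of 19938 genes (25.8%), with 2800 higher (14.0%) and 2343 lower (11.8%), and the falls ran deeper than the rises. At least 2-fold changes were nearly as common upwards (677 genes, 3.4%) as downwards (608 genes, 3.05%). At least 4-fold changes numbered 82 upwards and 195 downwards, at least 8-fold changes 15 and 81, and at least 16-fold changes 5 and 22. The largest 100 rises had a median of 2.29 and the largest 100 falls a median of -3.37. Values of the 3 arrays of a group lay apart from those of the other group, without overlap, in 9170 genes (46.0%), 4505 with day 11 above (22.6%) and 4665 with it below (23.4%). In 130 of the 677 rises the control mean, and in 131 of the 608 falls the day 11 mean, lay below the lowest array median of its group, where the size of a fold is least certain. With array weights 8337 genes were called (4191 higher, 4146 lower).

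**Figure D1:**
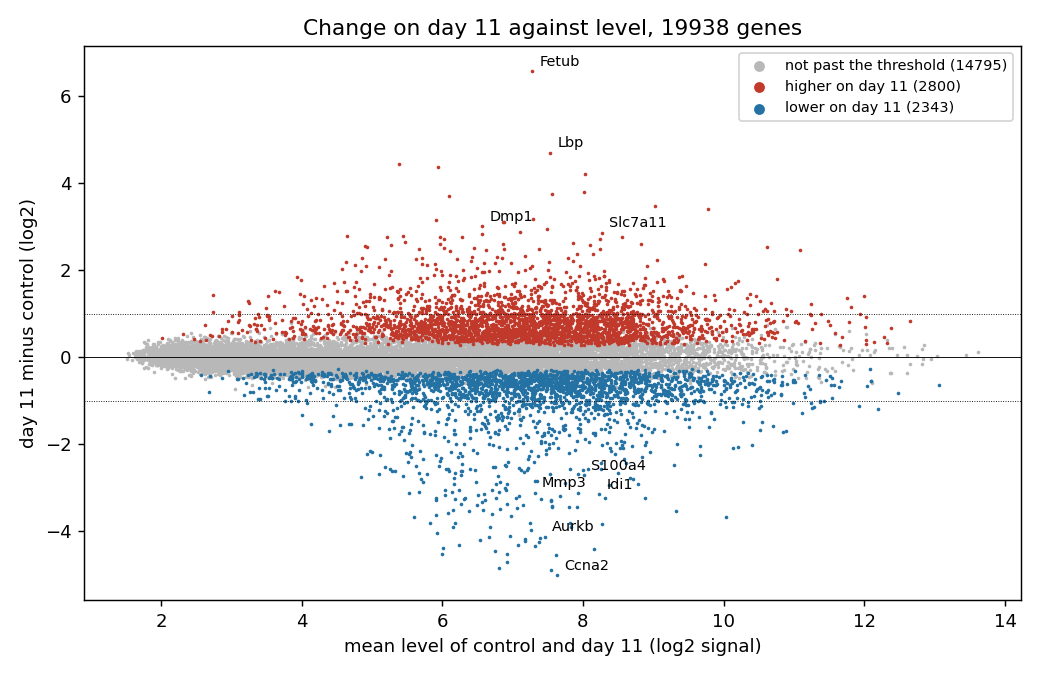
Day 11 minus control (log2, vertical) against the mean level of the 2 groups (log2 signal, horizontal) for 19938 genes, red for the 2800 genes called higher, blue for the 2343 called lower and grey for the rest, with dotted lines at 2-fold. Blue points reach further from 0 than red points, apart from Fetub at 6.56.

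Fetub, the gene of the secreted protease inhibitor fetuin B, read 4.17, 4.03 and 3.79 in control replicates 1 to 3 and 10.42, 10.60 and 10.65 in the day 11 replicates. The groups lay more than 6 log2 units apart and differed by 94.5-fold. The Fetub control values lay below the lowest control array median of 5.09, where the size of a fold is least certain. After the 10 largest rises, which Fetub leads, came 15 more genes by size. Ccpg1, whose product brings ER fragments to autophagosomes, rose by 3.18 (SE 0.12, adjusted p = 2.75e-15) from 5.76, 5.61 and 5.72 to 8.88, 8.87 and 8.88. Tcp11l2 rose by 3.14 (SE 0.10). Inmt, a small-molecule methyltransferase gene, rose by 3.10 (SE 0.42), with control values of 6.51, 5.04 and 4.39 and day 11 values of 8.45, 8.33 and 8.46. Its control arrays were thus spread far wider than its day 11 arrays, replicate 1 being the highest. The schlafen gene Slfn2, one of a family with similar copies, rose by 3.10 (SE 0.17). Dmp1, named for an acidic phosphoprotein of tooth and bone matrix, rose by 3.01 (SE 0.24), from 5.08, 5.14 and 4.95 to 7.83, 8.11 and 8.26. The transcription factor gene Crebl2 (2.93, SE 0.16), the CREB3 regulator gene Crebrf (2.87, SE 0.13) and the vitamin B12 carrier gene Tcn2 (2.83, SE 0.17) came next.

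Slc7a11, the subunit of the cystine importer that feeds glutathione synthesis, was among these rises too. It read 7.84, 6.24 and 6.43 in control and 9.86, 9.48 and 9.75 on day 11, a rise of 2.86 (SE 0.35, adjusted p = 7.99e-07). Control replicate 1 again stood above the other controls, and no day 11 array came down to it. Gadd45a, a growth arrest gene switched on by DNA damage and other stress, showed the same order of controls, with 7.88, 6.79 and 6.87 against 10.08, 9.73 and 10.01 (rise 2.76, SE 0.22). The antigen presentation gene H2-T24 (2.78, SE 0.21) belongs to a family with near-identical copies. Dpep2, a dipeptidase gene (2.77), Acox2, a peroxisomal oxidase gene (2.76), the zinc finger gene Plag1 (2.76) and the nuclear body gene Sp140 (2.75, SE 0.31) completed the 15.

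**Figure D2:**
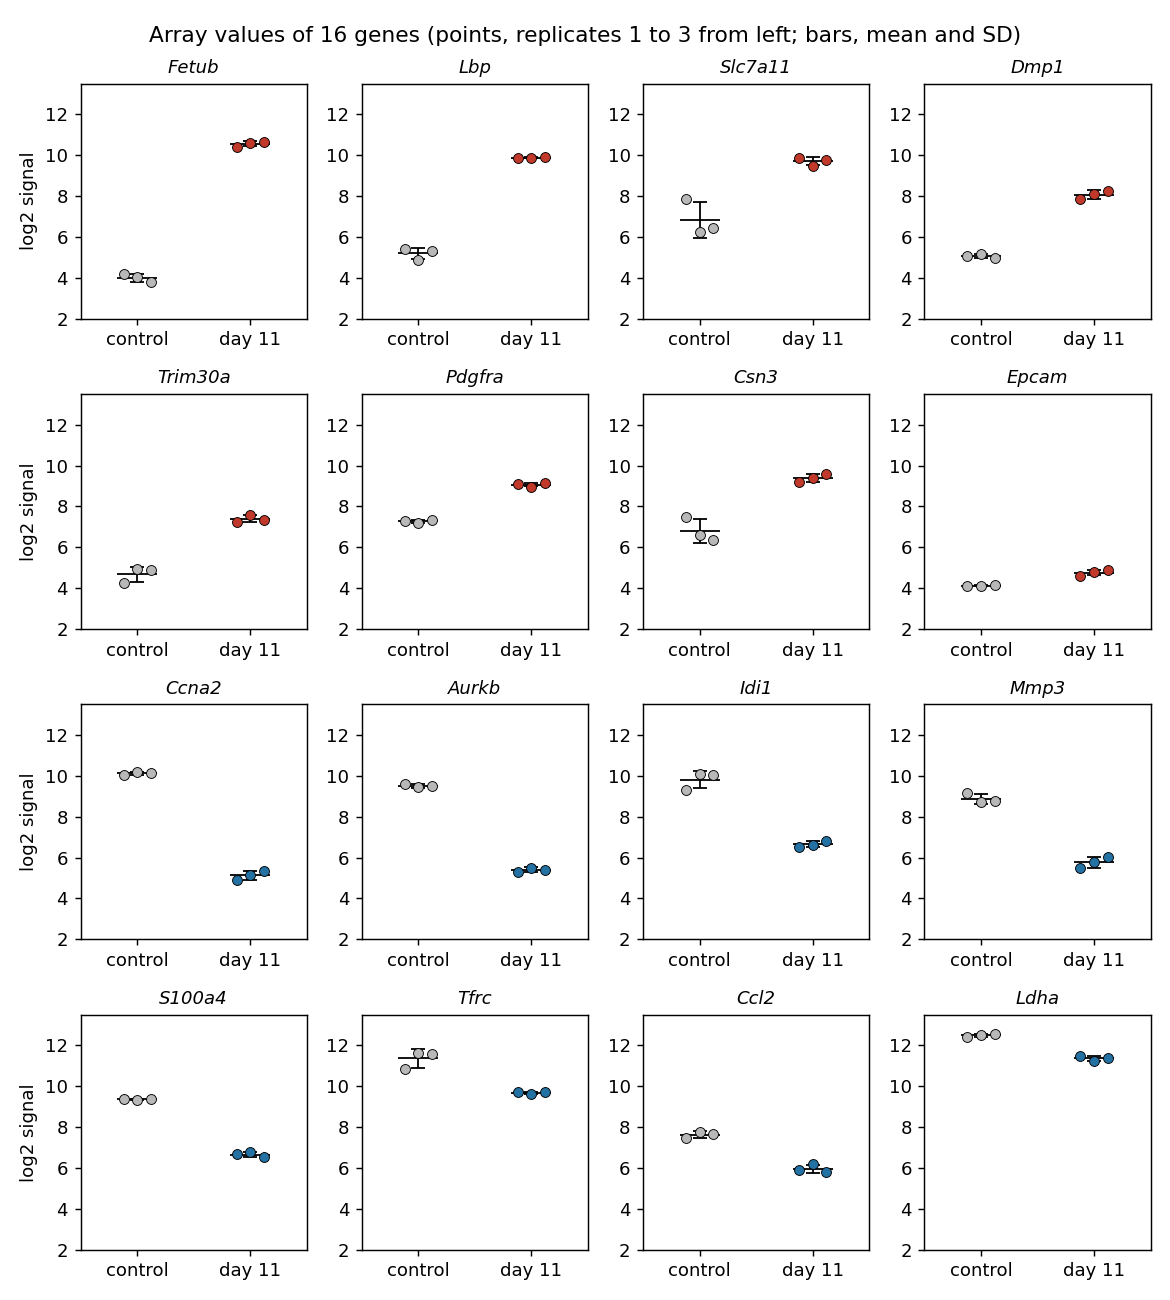
Log2 signal of each of the 3 control arrays (grey) and the 3 day 11 arrays (red where higher, blue where lower) for 16 genes, with black bars for the mean and SD. The groups do not overlap in any of the 16 genes, and control replicate 1 lies above the other controls in Slc7a11 and Csn3 and below them in Idi1 and Tfrc.

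The falls ranked next after the 10 deepest were these. Bub1, a kinase of the spindle checkpoint, read 9.29, 9.58 and 9.61 in control and 5.08, 5.05 and 5.33 on day 11, a change of -4.34 (SE 0.23, adjusted p = 6.06e-13), or 20.3-fold. Cep55, which acts when daughter cells separate, and Pimreg each fell by 4.31 (SE 0.26 and 0.16). Behind them stood the mitotic kinase genes Pbk (-4.24), Nek2 (-4.21), Aurka (-4.14), Aurkb (-4.12) and Bub1b (-3.90). The motor genes Kif15 (-4.09) and Kif4 (-4.03), the kinetochore genes Nuf2 (-4.16) and Knl1 (-4.12), Shcbp1 (-4.20) and the spindle gene Dlgap5 (-3.97) fell alongside. Gen1, whose product cuts recombination junctions in DNA, fell by 3.90 (SE 0.29). By the rule that chose these 15 genes, no day 11 array overlapped a control array.

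Division genes were then followed by their role in the cycle. All 19 cyclins and mitotic kinases measured fell (median -3.64, against -0.03 over all genes), as did all 25 kinetochore and centromere genes (median -2.99) and all 28 genes of spindle motors and spindle assembly (median -3.27). Aurkb, the kinase that corrects faulty attachments of chromosomes, read 9.61, 9.44 and 9.49 in control and 5.27, 5.51 and 5.41 on day 11 (change -4.12, SE 0.16, adjusted p = 3.81e-15). Kif11, the motor that pushes spindle poles apart, went from 8.96, 8.99 and 9.01 to 4.38, 4.68 and 4.53. Cdk1, the kinase that drives entry into mitosis, fell less, by 2.08 (SE 0.10), and at 7.49, 7.45 and 7.52 on day 11 it was measured with small spread. The smallest falls of these lists were those of the Cdk1 inhibitors Wee1 (-0.73) and Pkmyt1 (-1.23). The mean over the 19 cyclins and kinases was -3.44, -3.41 and -3.29 in day 11 replicates 1, 2 and 3, each relative to the control mean, so no single array carried them.

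Promoters of these genes are known for a pair of short motifs, the cell cycle genes homology region (CHR) and the CCAAT box, through which a repressor complex and its activating counterparts time transcription. The promoter of Ccnb2, the cyclin B2 gene, is shown because it had the largest change among genes considered from these lists whose window held a CHR. Genes on a chromosome left out of the choice beforehand were not considered. The 250 bases before its start site, on the minus strand of GRCm38.p6 at chr9:70421555-70421804 (RefSeq), read as follows, with the CHR match (TTTGAA) and the CCAAT letters in capitals.

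Ccnb2: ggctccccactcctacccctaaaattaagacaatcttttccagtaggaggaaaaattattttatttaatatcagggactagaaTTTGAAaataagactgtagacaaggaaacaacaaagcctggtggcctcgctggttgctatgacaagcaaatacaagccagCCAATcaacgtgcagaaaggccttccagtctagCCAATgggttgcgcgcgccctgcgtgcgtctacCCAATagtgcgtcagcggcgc

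The CHR letters lay 167 to 162 bases before the start, and CCAAT lay at 87 to 83, 54 to 50 and 21 to 17 bases. Ccnb2 itself read 9.85, 9.91 and 9.91 in control and 5.36, 5.16 and 5.54 on day 11, a change of -4.54 (SE 0.17, 23.3-fold). Searched on both strands as TTTGAA or TTCGAA, the CHR stood in 22 of 65 promoters of the 3 division lists (33.8%). It stood in 14 of 28 of the spindle list and 4 of 13 of the cyclin and kinase list (30.8%). In the kinetochore list it stood in 4 of 24 (16.7%), near the 14.8% of all 19177 promoters searched. CCAAT stood in 43 of the 65 (66.2%), against 34.5% of all. Among genes called and at least 2-fold lower, the shares were 20.3% for the CHR and 47.6% for CCAAT, and among those at least 2-fold higher 11.7% and 35.7%. A match describes letters in a window and was not tested as a site of binding.

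Replication genes had smaller median falls than the mitotic lists. Of 25 genes of origin licensing and firing 21 fell, 3 did not pass and 1 rose (median -1.77). Mcm5, a subunit of the helicase that unwinds origins, read 9.32, 9.50 and 9.66 in control and 6.22, 6.44 and 6.46 on day 11, a change of -3.12 (SE 0.20, adjusted p = 3.40e-11), with Mcm3 (-2.91) and Mcm10 (-2.90) next. Orc4, a subunit of the origin recognition complex, was the member that rose (0.81, SE 0.22, adjusted p = 0.00611), from 7.58, 7.82 and 7.83 to 8.31, 8.67 and 8.68. The other core subunits Orc2 (-0.23), Orc3 (0.14) and Orc5 (-0.12) did not pass, whereas Orc1 (-2.56) and Orc6 (-0.78) fell. Of 30 genes of the replication fork and nucleotide supply 28 fell (median -1.76), while Rpa3 (-0.49) and Dut (0.27) did not pass. Of 20 genes of homologous recombination and the Fanconi pathway 17 fell (median -2.01), led by Rad54l (-3.53), Exo1 (-3.23) and Fancd2 (-3.09). In cohesin and condensin, 12 of 15 fell. Esco2 (-3.67), Cdca5 (-3.51) and the condensin subunit Ncapg (-3.29) fell most, and the cohesin subunits Smc3 (-0.17), Stag1 (0.45) and Stag2 (0.39) did not pass. Searched as TTTGGCGC or TTTCCCGC on both strands, the E2F motif of replication genes stood in 6 of 24 licensing promoters, in 1 of 34 fork promoters (2.94%) and in 1.83% of all promoters.

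Genes that decide whether a cell leaves G1 moved in both directions. Of 28, 14 fell, 5 rose and 9 did not pass (median -0.52). Foxm1, the transcription factor that switches on mitotic genes, read 8.14, 8.17 and 8.30 in control and 4.78, 4.76 and 4.86 on day 11 (change -3.40, SE 0.22). Mybl2 (-3.38) and E2f8 (-3.04), which act in the same programme, fell nearly as far. Ccnd1, the cyclin D1 gene, fell by 0.82 (SE 0.19, adjusted p = 0.00141). The rises were the retinoblastoma gene Rb1 (0.97, SE 0.14), the antiproliferative genes Btg2 (0.81) and Btg1 (0.52), Cdkn1b, which encodes the CDK inhibitor p27 (0.76, SE 0.11), and Ccnd2 (0.59). Cdkn1b read 8.12, 8.09 and 7.99 in control and 8.82, 8.76 and 8.90 on day 11. The call of Btg2 was lost without control replicate 1 or day 11 replicate 3 (adjusted p = 0.0724 and 0.0595). The inhibitors Cdkn2a (-0.44), Cdkn2b (-0.28), Cdkn2c (0.06) and Cdkn1c (0.13) did not pass.

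Histone genes split. Of 14 measured, 8 fell, 2 rose and 4 did not pass (median -0.81). H2ac4 (-4.39), H1f5 (-3.67) and H2bc3 (-2.61) fell most, and the variant H2ax fell by 2.56. H1f2, a linker histone gene, rose by 2.20 (SE 0.18, adjusted p = 1.26e-09), from 6.96, 6.46 and 6.83 to 8.82, 8.97 and 9.08. H2bc4 rose by 1.60 (SE 0.25), from 5.09, 5.29 and 5.79 to 6.90, 6.94 and 7.12. Histone gene copies are nearly identical, and probe sets may not separate them.

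All measured genes that build sterols fell. All 20 genes of sterol synthesis and uptake fell (median -1.38). Idi1, which isomerises the isoprenoid unit, read 9.33, 10.09 and 10.02 in control and 6.54, 6.64 and 6.80 on day 11 (change -3.15, SE 0.37, 8.87-fold). Control replicate 1 lay below the other controls in this list, at a mean of -0.28 against 0.13 and 0.15, and the day 11 arrays lay at -1.42, -1.52 and -1.47. Hmgcs1, which starts the mevalonate pathway, read 9.25, 9.63 and 9.66 in control and 7.58, 7.50 and 7.67 on day 11 (change -1.93, SE 0.17, adjusted p = 4.06e-09). Its promoter is shown because it was the only one of the 19 searched that held the sterol response element (SRE) of SREBP transcription factors, spelled TCACNCCAC. The bases of GRCm38.p6 at chr13:119690101-119690350, plus strand (RefSeq), follow with the match in capitals, 137 to 129 bases before the start.

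Hmgcs1: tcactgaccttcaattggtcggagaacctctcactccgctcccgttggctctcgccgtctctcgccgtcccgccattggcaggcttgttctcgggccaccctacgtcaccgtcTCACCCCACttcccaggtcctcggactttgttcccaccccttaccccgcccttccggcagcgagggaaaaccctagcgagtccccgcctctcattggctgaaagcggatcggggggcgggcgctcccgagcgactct

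The same letters stood in 1.01% of all promoters and in 0.659% of those of genes called and at least 2-fold lower. Of 9 genes of sterol efflux and LXR targets 3 rose, 2 fell and 4 did not pass. Mylip, which targets the LDL receptor for breakdown, rose by 1.44 and the lysosomal cholesterol exporter genes Npc1 and Npc2 by 0.69 and 0.34. Srebf1 fell by 0.95 and Lpcat3 by 0.50, while the exporters Abca1 (0.12) and Abcg1 (-0.06) did not pass. The call of Npc2 was lost without control replicate 1 or day 11 replicate 1 (adjusted p up to 0.0794), and that of Lpcat3 without any single one of the 6 arrays (adjusted p up to 0.114).

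Fatty acid synthesis genes mostly fell, and some oxidation genes and the droplet gene Plin2 rose. Of 21 synthesis and desaturation genes 12 fell, 8 did not pass and Me1, which supplies NADPH, rose by 0.97. The desaturase genes Fads2 (-2.22) and Scd2 (-2.06) and the synthase gene Fasn (-1.97) fell most. Plin2, the coat protein gene of lipid droplets, read 9.22, 9.27 and 9.41 in control and 10.98, 10.81 and 10.92 on day 11, a rise of 1.61 (SE 0.10, adjusted p = 2.83e-11). Among 25 genes of droplets, lipolysis and lipid carriers, 4 fell, 19 did not pass and the lipase gene Pnpla2 (0.37) was the other rise. The called share of this list was close to the 25.8% of all genes. Fabp5, a fatty acid carrier gene, fell by 2.60 (SE 0.20) and the lipase gene Lipg fell by 2.69 (SE 0.14). Lipg read 6.14, 6.50 and 6.68 in control and 3.56, 3.88 and 3.81 on day 11. Of 25 oxidation, thioesterase and PPAR target genes 10 rose, 14 did not pass and Ppard fell by 0.36. The mitochondrial importer gene Cpt1a (1.22) and the electron carrier gene Etfdh (1.02) rose. The peroxisome proliferator-activated receptor genes Ppara (-0.15) and Pparg (0.09) did not pass. The call of Ppard was lost without day 11 replicate 2 (adjusted p = 0.0629) and that of Pnpla2 without 5 of the 6 arrays taken singly (adjusted p up to 0.222).

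**Figure D3:**
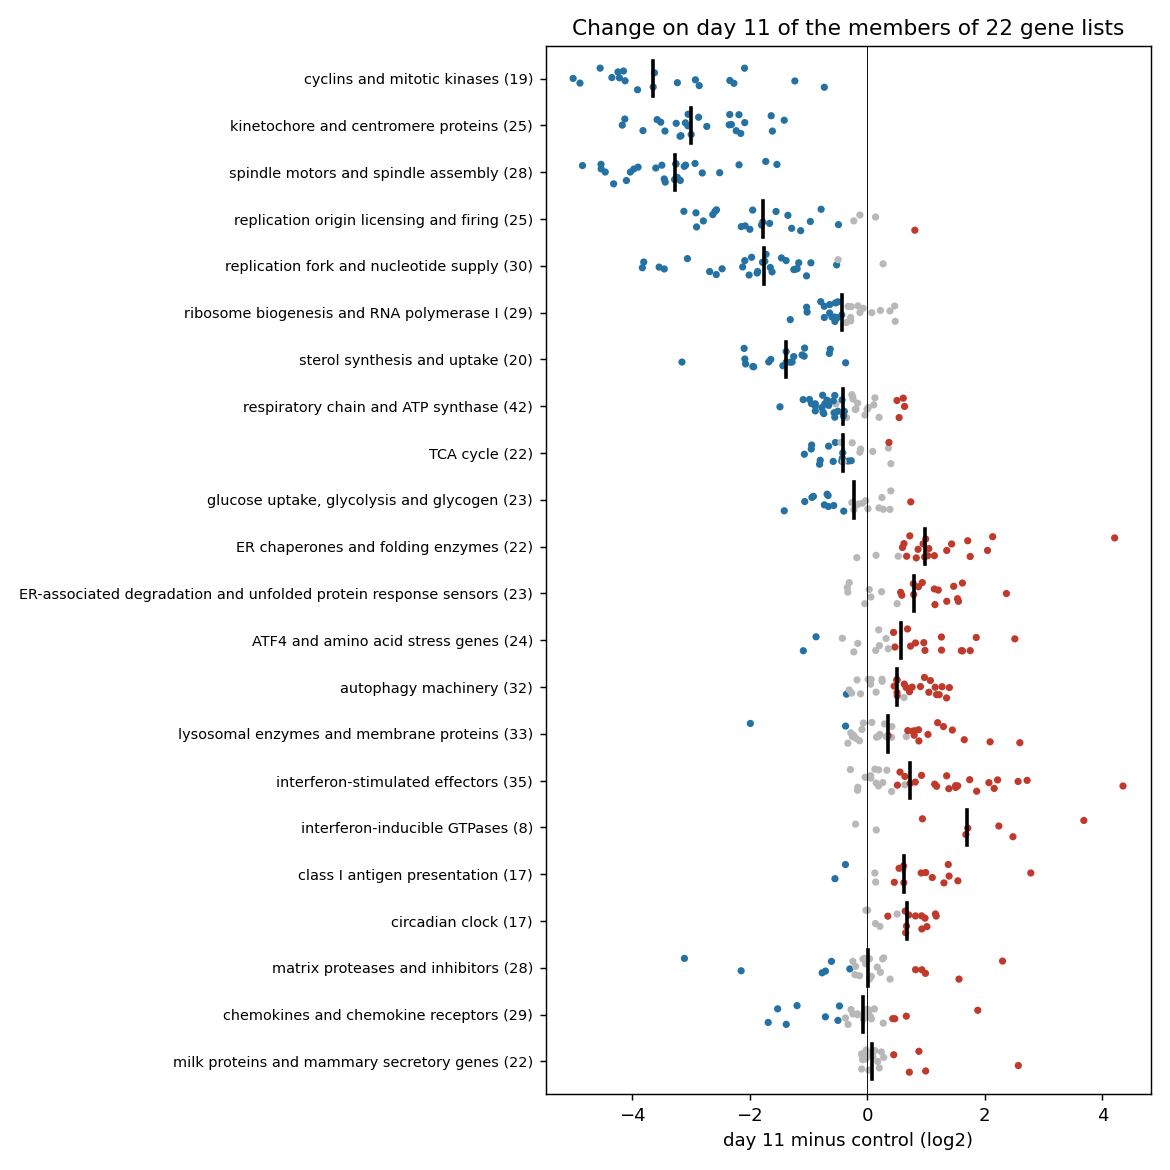
Day 11 minus control (log2) for each measured member of 22 gene lists, 1 list a row with its number of members in parentheses, red for members called higher, blue for those called lower, grey for the rest, and a black bar at the median. The medians run from -3.64 in cyclins and mitotic kinases to 1.69 in interferon-inducible GTPases.

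Most measured genes of 3 secretory pathway lists rose. Of 22 ER chaperones and folding enzymes 19 rose, none fell and Canx (0.53), P4hb (0.15) and Ppib (-0.18) did not pass (median 0.99). Of 23 genes of ER-associated degradation and the unfolded protein response sensors 15 rose and none fell (median 0.79). Of 35 genes of ER to Golgi transport and glycosylation 24 rose, 10 did not pass and Dad1, a subunit of the glycosyltransferase that modifies new proteins, fell by 0.88 (SE 0.14). Ern1, the sensor that splices Xbp1 RNA, read 7.11, 6.92 and 6.86 in control and 9.29, 9.32 and 9.38 on day 11, a rise of 2.37 (SE 0.13, adjusted p = 9.77e-13). Its target Xbp1 rose by 1.54 (SE 0.15), Selenos, which helps move misfolded proteins out of the ER, by 1.62 and Herpud1 by 1.55, while the sensors Eif2ak3 (0.59) and Atf6 (0.57) rose less. Splicing of Xbp1 cannot be read from these values. In transport, the translocation genes Sec62 (1.37) and Sec63 (0.96) and the glycosyltransferase subunit gene Stt3a (1.15) rose most.

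Dnajb9, a co-chaperone of the ER, had the largest rise of the chaperone list (4.21, SE 0.37), with 5.56, 5.99 and 6.25 in control and 10.25, 10.05 and 10.12 on day 11. Hyou1, a chaperone that is also induced by low oxygen, read 8.55, 8.75 and 8.72 in control and 10.92, 10.66 and 10.84 on day 11 (rise 2.13, SE 0.21). Ero1b, the oxidase that forms disulfide bonds in new proteins, rose by 2.05 (SE 0.21, 4.13-fold, adjusted p = 4.88e-08), from 5.55, 5.44 and 5.42 to 7.65, 7.34 and 7.55. Its promoter is shown because it held the ER stress response element (ERSE), CCAAT followed by CCACG with 9 bases between, and had the largest change among list members that did. The bases of GRCm38.p6 at chr13:12565633-12565882, plus strand (RefSeq), follow, with the element in capitals as its reverse complement, 201 to 183 bases before the start.

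Ero1b: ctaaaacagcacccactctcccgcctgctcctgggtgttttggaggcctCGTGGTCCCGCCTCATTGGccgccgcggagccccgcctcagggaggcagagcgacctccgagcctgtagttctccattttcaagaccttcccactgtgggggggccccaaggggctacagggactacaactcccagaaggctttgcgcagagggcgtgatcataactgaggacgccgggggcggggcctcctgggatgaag

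The ERSE stood in 8 of 25 chaperone promoters (32.0%), in 2 of 21 of the degradation and sensor list (9.52%) and in 21 of all 19177 promoters (0.11%). Of promoters of genes called and at least 2-fold higher, 5 of 691 held it (0.724%). The related element TGACGTGG (UPRE) stood in 3 of the 46 promoters of both lists (6.52%) and in 0.636% of all.

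Many genes of the amino acid stress programme of the transcription factor ATF4 rose. Of 24 members 14 rose, 2 fell and 8 did not pass (median 0.58). Ddit3, which encodes the stress factor CHOP, read 5.79, 4.79 and 5.00 in control and 8.04, 7.44 and 7.65 on day 11 (rise 2.51, SE 0.30, adjusted p = 6.76e-07). The pseudokinase gene Trib3 rose by 1.86 (SE 0.27), the stress gene Nupr1 by 1.75, the phosphatase subunit gene Ppp1r15a by 1.62 and Atf3 by 1.60. The serine and glycine enzymes Shmt2 (-1.09) and Psat1 (-0.87) fell, and Phgdh (-0.42), Psph (0.15) and Asns (0.20) did not pass. Control replicate 1 lay higher in this list, at a mean of 0.31 against -0.15 and -0.16, and the day 11 arrays lay at 0.65, 0.64 and 0.64. The rises numbered 18 without control replicate 1 and 10 without control replicate 2 or 3. Of 23 amino acid transporter genes 8 rose, 14 did not pass and Slc1a5, the main glutamine importer, fell by 0.89 (SE 0.18), from 9.68, 9.39 and 9.39 to 8.54, 8.63 and 8.62. After Slc7a11, the glycine transporter gene Slc6a9 (1.57) rose most. The motif TGATGNAA stood in 6 of 26 promoters of the ATF4 list (23.1%) and in 2.68% of all. Among promoters of genes called and at least 2-fold higher, 2.32% held it.

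Interferon-linked genes rose in many effectors and sensors. Of 35 interferon-stimulated effectors 21 rose, none fell and 14 did not pass (median 0.73), and of 8 interferon-inducible GTPases 6 rose (median 1.69). Ifnb1 itself did not pass (-0.11), nor did the effectors Rsad2 (-0.16), Mx1 (0.06), Ifit2 (0.34) and Ifit3 (0.20). Trim30a, an interferon-induced member of the tripartite motif family, read 4.23, 4.92 and 4.86 in control and 7.24, 7.59 and 7.34 on day 11, a rise of 2.72 (SE 0.22, adjusted p = 1.45e-09). Lgals3bp (2.22), Oasl2 (2.16) and Xaf1 (2.07) rose too. Irgm1, a GTPase that guards against vacuolar pathogens, read 4.24, 4.51 and 4.54 in control and 6.85, 6.92 and 6.96 on day 11. The Trim30a promoter is shown because it had the largest change among interferon-stimulated effectors with the core of the interferon-stimulated response element (ISRE), spelled GAAANNGAA. The GTPases were not considered for this choice. The bases of GRCm38.p6 at chr7:104465194-104465443, minus strand (RefSeq), follow, with the match in capitals as its reverse complement, 35 to 27 bases before the start.

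Trim30a: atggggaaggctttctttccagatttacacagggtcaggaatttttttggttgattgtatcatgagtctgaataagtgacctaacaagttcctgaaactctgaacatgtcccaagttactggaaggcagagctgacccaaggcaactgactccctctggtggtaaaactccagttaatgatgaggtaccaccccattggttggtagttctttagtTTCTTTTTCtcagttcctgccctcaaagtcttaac

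The ISRE core stood in 9 of 34 effector promoters (26.5%), in 4 of 5 GTPase promoters (80.0%), in 4 of 28 of the signalling list (14.3%) and in 2 of 12 of the class I list (16.7%). Together that was 19 of 79 (24.1%), against 6.79% of all promoters. Of promoters of genes called and at least 2-fold higher, 7.81% held it.

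Of 29 genes of interferon signalling and pattern receptors 13 rose, 5 fell and 11 did not pass. The transcription factor genes Irf7 (2.43) and Irf9 (2.15) and the RNA sensor genes Ifih1 (1.88), Dhx58 (1.87) and Ddx58 (1.72) rose most. Irf8 (-0.77), Ifngr2 (-0.62), the DNA sensor gene Cgas (-0.56), Mavs (-0.52) and Irf5 (-0.38) fell, and the call of Cgas was lost without control replicate 2 (adjusted p = 0.0683). Of 17 genes of class I antigen presentation 12 rose, 2 fell and 3 did not pass (median 0.62). The immunoproteasome gene Psmb8 (1.54), the peptide transporter genes Tap2 (1.39) and Tap1 (0.92) and the loading factor gene Tapbp (1.38) rose, while B2m (0.61), the light chain shared by all class I molecules, did not pass although its arrays did not overlap. The 2 falls were Psmb10 (-0.37) and the class I regulator gene Nlrc5 (-0.55). Psmb10 lost its call without 5 of the 6 arrays taken singly (adjusted p up to 0.14). Nlrc5 has 19 probe sets, and the mean over all of them lay at 0.15, so its direction is not settled.

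Of 28 acute-phase and innate secreted genes 7 rose, none fell and 21 did not pass (median 0.05), a called share close to the 25.8% of all genes. Lbp, which binds bacterial lipopolysaccharide, rose by 4.69 (SE 0.18), and the copper carrier gene Cp by 3.39 (SE 0.19). Next after Fetub and these came Lcn2, whose product binds bacterial iron carriers, at 9.76, 9.12 and 9.16 in control and 11.88, 11.93 and 11.83 on day 11 (rise 2.54, SE 0.18). Slpi, a protease inhibitor gene, rose by 1.72 (SE 0.13), Lrg1 by 1.52 and Cd14 by 0.48. The serum amyloid genes Saa1 (0.04), Saa2 (0.07) and Saa3 (0.14), the haptoglobin gene Hp (0.09) and Ptx3 (-0.02) did not pass. Of 26 complement and coagulation genes 7 rose, 18 did not pass and Plau fell by 0.63, against 25.8% called over all genes. F5, coagulation factor V, read 3.65, 3.65 and 3.69 in control and 6.29, 6.19 and 6.08 on day 11 (rise 2.52, SE 0.18, adjusted p = 1.68e-10). C1s1 (2.24, SE 0.29) and C1ra (1.09), the proteases that start the classical complement pathway, rose together. The C/EBP motif TTGCNNAA stood in 13 of 28 acute-phase promoters (46.4%) and 8.66% of all, and the NF-kB motif GGGNNTTCC in 1 of 28 (3.57%) and 5.52%. Among promoters of genes called and at least 2-fold higher, the shares were 9.41% for C/EBP and 7.24% for NF-kB.

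Of 29 chemokine and receptor genes 7 fell, 4 rose and 18 did not pass (median -0.06), against 25.8% called over all genes. Ccl2, which attracts monocytes, read 7.47, 7.78 and 7.66 in control and 5.90, 6.18 and 5.79 on day 11, a change of -1.68 (SE 0.23, adjusted p = 5.13e-06). Ccl5 (-1.52), Ccl20 (-1.38) and Cxcl5 (-1.19) fell as well. The scavenging receptor gene Ackr3 rose by 1.88 (SE 0.16), from 4.75, 5.01 and 5.05 to 6.99, 6.80 and 6.67, with Cx3cl1 (0.67), Ccl25 (0.47) and Ccrl2 (0.44). The call of Ccl25 was lost without control replicate 1 or day 11 replicate 2 or 3 (adjusted p up to 0.188). Of 21 NF-kB pathway genes 8 fell and 3 rose (median -0.22). The kinase gene Ikbke fell by 1.42 (SE 0.14) and the inhibitor genes Tnfaip3 (-0.97) and Nfkbie (-0.84) fell. Ikbkg, the scaffold of the activating kinase, rose by 1.29 (SE 0.13), and Tnfrsf1b (0.56, lost without 4 of the 6 arrays taken singly, adjusted p up to 0.0852) and Cd40 (0.54) followed. The subunits Rela (0.11), Rel (-0.02) and Relb (0.16) did not pass.

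Of 32 interleukin, colony-stimulating factor and receptor genes 7 rose, 2 fell and 23 did not pass, a called share close to the 25.8% of all genes. Osmr, the oncostatin M receptor, read 5.11, 5.18 and 4.98 in control and 7.25, 7.39 and 7.37 on day 11 (rise 2.24, SE 0.15, adjusted p = 7.69e-11). Its partner Il6st rose by 0.89, and the ligand genes Osm (-0.03), Il6 (0.15) and Lif (0.26) did not pass. Il23a (1.45), Tslp (1.05) and the macrophage growth factor gene Csf1 (0.92) rose. Il24 (-1.56, SE 0.25) and Csf3 (-1.23) fell. Il24 read 4.48, 5.81 and 5.67 in control and 3.78, 3.78 and 3.71 on day 11, so control replicate 1 lay between the other controls and the day 11 arrays.

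Of 35 collagen, laminin and matrix glycoprotein genes 9 rose, 25 did not pass and Sparc fell by 0.81, a called share close to the 25.8% of all genes. Fn1, fibronectin, read 9.41, 10.03 and 10.13 in control and 12.29, 12.25 and 12.42 on day 11 (rise 2.46, SE 0.14, adjusted p = 3.66e-12). Thbs1 (1.75) and the laminin genes Lamb2 (1.49), Lamb1 (1.06), Lamc1 (0.91) and Lama5 (0.86) rose. Of 28 matrix protease and inhibitor genes 6 fell and 5 rose, against 25.8% called over all genes. The rises numbered 9 without day 1 replicate 1 and day 9 replicates 2 and 3 in the fit. Mmp3, stromelysin 1, read 9.15, 8.70 and 8.75 in control and 5.49, 5.78 and 6.02 on day 11, a change of -3.11 (SE 0.20, 8.62-fold). Mmp10, stromelysin 2, fell by 2.14 (SE 0.18), and Timp1 by 0.61. Reck, a membrane-anchored protease inhibitor gene, rose by 2.30 (SE 0.11), from 5.41, 5.79 and 5.69 to 7.92, 7.95 and 7.94. Mmp19 (1.56), Mmp14 (0.99), Mmp13 (0.93) and the cathepsin inhibitor gene Cst3 (0.82) were the other rises, and Mmp9 read near its control (0.04, adjusted p = 0.945).

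Of 21 mesenchymal genes 3 fell and 4 rose (median -0.04), against 25.8% called over all genes. S100a4, a calcium-binding protein gene tied to metastasis, read 9.39, 9.33 and 9.37 in control and 6.67, 6.77 and 6.52 on day 11, a change of -2.71 (SE 0.13, adjusted p = 3.05e-13). Vim, vimentin, fell by 1.18 (SE 0.11), from 12.76, 12.81 and 12.78 to 11.59, 11.59 and 11.61, and Tpm1 by 0.78. Pdgfra rose by 1.79 (SE 0.15), from 7.30, 7.19 and 7.34 to 9.09, 8.97 and 9.13, with Pdgfrb (1.32), the repressor gene Zeb2 (0.82) and Actn1 (0.43). The transcription factor genes Snai1 (0.09), Snai2 (-0.03), Twist1 (0.25) and Zeb1 (-0.13) did not pass. Of 41 genes of epithelial junctions and keratins 6 rose, 5 fell and 30 did not pass (median -0.01), a called share close to the 25.8% of all genes. The falls numbered 3 without control replicate 3 or day 11 replicate 1. Cldn4, a tight junction gene, rose by 1.73 (SE 0.14), Epcam by 0.63 (SE 0.14), F11r by 0.61 and Cdh1, E-cadherin, by 0.45 (SE 0.11). Epcam read 4.10, 4.10 and 4.16 in control and 4.61, 4.77 and 4.88 on day 11. Elf3 (-0.76), Krt19 (-0.66), Krt8 (-0.58, SE 0.13), Cgn (-0.46) and Krt80 (-0.45) fell, and Krt18 (0.04) did not pass.

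Milk and signalling genes held single strong movers. Of 22 milk and mammary secretory genes 5 rose and 17 did not pass, a called share close to the 25.8% of all genes. Csn3, kappa-casein, read 7.47, 6.62 and 6.34 in control and 9.18, 9.41 and 9.56 on day 11 (rise 2.57, SE 0.19, adjusted p = 2.85e-10). The oestrogen receptor gene Esr1 rose by 1.00 (SE 0.17), Xdh by 0.88, Mfge8 by 0.72 and Stat5a by 0.45, and the other caseins Csn1s1 (-0.03), Csn2 (0.03) and Csn1s2a (0.07) did not pass. Of 31 genes of TGF-beta and BMP signalling and Id proteins 14 rose, 16 did not pass and Ccn2 fell by 0.69 (adjusted p up to 0.0823 without control replicate 2 or 3, which ended its call). Tgfbr3, a co-receptor gene, rose by 1.79 (SE 0.16) from 6.32, 6.43 and 6.51 to 8.16, 8.12 and 8.35, and Skil (1.67), Sox4 (1.35), Bmpr2 (1.33) and Smad3 (1.22) followed. The ligand genes Tgfb2 (0.85) and Tgfb3 (0.97) rose and Tgfb1 (-0.12) did not pass.

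Of the genes that handle lactate and glucose, main transporters did not pass the test and several enzymes fell. Slc16a1, the monocarboxylate transporter that carries lactate with a proton, read 10.13, 10.12 and 10.09 in control and 10.08, 10.15 and 10.03 on day 11 (difference -0.03, SE 0.10, adjusted p = 0.915). Its relative Slc16a3 (-0.13, SE 0.16), the glucose transporter gene Slc2a1 (0.01, SE 0.15), hexokinase Hk2 (0.25, SE 0.15), Ldhb (-0.03, SE 0.18) and Txnip (-0.02, SE 0.21) did not pass. The groups overlapped in each of these 6 genes, and Txnip rested on a control replicate 1 at 8.59 against 7.72 and 7.84. Ldha, the lactate dehydrogenase subunit of glycolytic cells, read 12.41, 12.52 and 12.55 in control and 11.50, 11.25 and 11.36 on day 11, a change of -1.12 (SE 0.11, adjusted p = 3.48e-08). Pyruvate carboxylase, Pcx, read 5.55, 5.53 and 5.50 in control and 5.45, 5.16 and 5.42 on day 11, below control without overlap, yet the difference did not pass (-0.18, adjusted p = 0.478). Of 24 lactate, pyruvate and gluconeogenesis genes 7 fell, 16 did not pass and Pdk2, which inhibits pyruvate dehydrogenase, rose by 0.78. Over all genes 25.8% were called. Of 23 genes of glucose uptake, glycolysis and glycogen 10 fell, 12 did not pass and Ugp2 rose by 0.74. The enzyme genes Pgam1 (-1.41), Pkm (-1.06), Pgk1 (-0.94) and Tpi1 (-0.91) led the falls. Malic enzyme Me2, in mitochondria, fell by 1.30 (SE 0.14), whereas the cytosolic Me1 rose.

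Mitochondrial genes fell by small amounts in many members. Of 42 respiratory chain and ATP synthase genes 24 fell and 4 rose (median -0.42), and of 22 TCA cycle genes 13 fell and Mdh1 rose by 0.37, a call lost without control replicate 1 or day 11 replicate 2 (adjusted p = 0.0525 and 0.0646). Uqcrc1, of complex III, read 11.02, 10.97 and 11.06 in control and 9.51, 9.66 and 9.43 on day 11 (change -1.48, SE 0.16). The 4 rises, Ndufa2 (0.64), Ndufb10 (0.61), Ndufa1 (0.54) and Ndufa6 (0.51), were all of complex I. Of 24 genes of mitochondrial import, chaperones and dynamics 9 fell and 4 rose. Tomm40, the pore of the outer membrane, fell by 1.61 (SE 0.13) from 9.18, 9.14 and 9.25 to 7.48, 7.55 and 7.69, with its partner Tomm22 (-1.29). Pink1, a kinase that marks damaged mitochondria for removal, rose by 1.02 (SE 0.20), with Timm10 (0.47), Hspa9 (0.46) and Clpx (0.41). The call of Timm10 was lost without control replicate 2 (adjusted p = 0.0596), and that of Hspa9 without control replicate 2 or 3 or day 11 replicate 2 (up to 0.0818).

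Of 22 iron handling genes 4 rose, 2 fell and 16 did not pass, a called share close to the 25.8% of all genes. The rises were led by Cp (3.39) and Lcn2 (2.54), and numbered 2 without any single array other than day 11 replicate 2. Tfrc, the transferrin receptor, read 10.84, 11.65 and 11.59 in control and 9.71, 9.61 and 9.71 on day 11, a change of -1.68 (SE 0.27, adjusted p = 2.88e-05), with control replicate 1 nearest to day 11. The ferritin genes Fth1 (0.19) and Ftl1 (0.23) and the exporter gene Slc40a1 (0.04) did not pass, while Ncoa4, which brings ferritin to autophagosomes, rose by 0.58. Of 28 NRF2, glutathione and antioxidant genes 7 fell and 3 rose, against 25.8% called over all genes. With only the 6 arrays fitted, 6 rose. Metallothionein Mt2 fell by 2.02 (SE 0.15), from 11.20, 11.50 and 11.55 to 9.41, 9.45 and 9.33, and Mt1 by 0.75. Gstm1 (1.16), Gsta4 (0.85) and Gpx4 (0.43, a call lost after cyclic loess) were the rises. Of 21 HIF and hypoxia targets 6 rose, 2 fell and 13 did not pass, against 25.8% called over all genes. Vegfa rose by 1.60 (SE 0.17) and Hif1a by 0.88 (SE 0.17), while Car9 (-0.31), Bnip3 (-0.27) and Ndrg1 (0.33) did not pass. The falls were Egln2 (-0.42) and Pdk1 (-0.34). Without control replicate 3 both calls were lost (adjusted p = 0.0522 and 0.163), and that of Pdk1 also without control replicate 2 or day 11 replicate 1.

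Of 32 genes of the autophagy machinery 19 rose, 12 did not pass and Atg7 fell by 0.35 (median 0.51). Atg13 (1.40), Calcoco1 (1.35), Gabarapl1 (1.27) and Sqstm1 (1.22) rose most. Of 33 lysosomal genes 14 rose, 2 fell and 17 did not pass (median 0.36). Ctso, a cathepsin gene, read 5.06, 4.64 and 4.32 in control and 7.17, 7.29 and 7.35 on day 11 (rise 2.60, SE 0.17, adjusted p = 3.35e-11). Gusb, beta-glucuronidase, fell by 1.99 (SE 0.16), from 8.49, 8.47 and 8.57 to 6.65, 6.45 and 6.47, and Gla by 0.37. Atg7 lost its call without any single one of the 6 arrays (adjusted p up to 0.181) and Gla without 5 of them (up to 0.197). The regulators Tfeb (0.08) and Tfe3 (0.20) did not pass. Of 25 proton pump and pH genes 9 rose, 15 did not pass and the surface carbonic anhydrase gene Car12 fell by 0.78. Slc9a9, an exchanger of endosomes, rose by 2.14 (SE 0.17), from 4.91, 4.78 and 4.23 to 6.84, 6.76 and 6.74, and 8 of the other rises were subunits of the vacuolar proton pump or its accessory proteins, up to 0.80 in Atp6v1h.

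Most measured clock genes rose. Of 17 circadian clock genes 12 rose, none fell and 5 did not pass (median 0.67). Nr1d2, a repressor of the clock, read 8.19, 7.96 and 8.09 in control and 9.25, 9.23 and 9.30 on day 11 (rise 1.17, SE 0.21), and both activators, Arntl (0.65) and Clock (0.66), rose with the repressors Per1 (0.93), Per2 (0.82) and Cry1 (0.67). Of 32 stress arrest genes linked to p53 and FoxO 18 rose and 3 fell (median 0.48). Bcl6 (2.28), Insr (1.65) and Klf9 (1.38) rose, whereas Gadd45g (-0.78) and Gadd45b (-0.71) fell, unlike their relative Gadd45a. The third fall, Foxo4 (-0.31), lost its call without any single one of the 6 arrays (adjusted p up to 0.116). Of 29 ribosome biogenesis genes 15 fell and none rose (median -0.43), led by Bop1 (-1.31, SE 0.15). Of 26 regulators of AMPK and mTORC1 6 rose and 2 fell, against 25.8% called over all genes, and 3 rose without control replicate 2. The arginine sensor gene Castor1 fell by 1.11 (SE 0.16), from 7.79, 7.77 and 7.89 to 6.62, 6.79 and 6.70.

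Cell death genes moved in both directions. Of 30 measured, 10 rose, 5 fell and 15 did not pass (median -0.03). The inflammatory caspase genes Casp1 (2.08, SE 0.14), Casp4 (1.51) and Casp12 (1.48) rose, and Casp1 read 3.77, 4.11 and 3.76 in control and 5.76, 5.94 and 6.20 on day 11. The survival genes Cflar (1.62), Birc2 (1.27) and Bcl2 (1.12, SE 0.14) rose too, as did the BH3-only gene Bcl2l11 (0.77). The mitochondrial pathway genes Bok (-1.17), Bak1 (-1.10), Apaf1 (-0.83), Casp2 (-0.49) and Casp9 (-0.43) fell. The falls numbered 9 after cyclic loess or without day 1 replicate 1 and day 9 replicates 2 and 3, and 3 without control replicate 1 or day 11 replicate 3. Of 27 immediate early genes, which answer growth factors within minutes, 11 rose and 2 fell. Fos rose by 1.61 (SE 0.25), from 5.07, 5.32 and 5.47 to 6.80, 7.10 and 6.77, and Ier2 by 1.20 (SE 0.25). Myc read 10.04, 10.07 and 10.22 in control and 10.66, 10.66 and 10.64 on day 11 (rise 0.55, SE 0.11, adjusted p = 4.62e-04). Dusp5 (-0.95) fell, and the fall of Fosl1 (-0.48) was lost without any single one of the 6 arrays (adjusted p up to 0.101).

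A second comparison set day 11 against the mean of days 3, 4, 5, 7 and 9, and asked what was different on the last day among treated cells without using the control arrays. It called 1175 of 19938 genes (5.89%), 594 higher (2.98%) and 581 lower (2.91%), of which 14 higher and 40 lower by at least 2-fold. The count was 567, 427 and 430 without day 11 replicate 1, 2 and 3, 2346 with only these 18 arrays fitted, 5084 with array weights, and 3724 without day 1 replicate 1 and day 9 replicates 2 and 3. With arrays centred on their medians the split was 666 higher and 312 lower. Fetub led the rises (1.89, SE 0.14, adjusted p = 6.01e-08). Kng2, a kininogen gene, stood 1.34 above the mean of days 3 to 9 (SE 0.15), at 5.91, 5.63 and 5.95 against 4.01, 3.69 and 3.89 in control, and F5 stood 1.02 above them (SE 0.14). Cd74, the invariant chain of class II antigen presentation, stood 1.02 above (SE 0.16), with group means of 3.73 in control, 4.07 on day 3, 4.89 on day 5, 5.98 on day 7, and day 11 arrays at 5.81, 6.07 and 6.13. Ackr3 (0.96) and Trim30a (0.89) were above the mean of days 3 to 9 as well, but neither passed against day 9 alone, nor did Fetub, Kng2, F5 and Cd74. The pain receptor channel gene P2rx3 (1.08, SE 0.17), the amino sugar enzyme gene Gnpnat1 (1.07, SE 0.22), the histone gene H2bc4 (1.36, SE 0.19) and the small nucleolar RNA Snord47 (1.65, SE 0.23) were others of the 12 largest. P2rx3, Gnpnat1, H2bc4 and Snord47 did not pass against day 9 alone either.

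Of other genes that stood above days 3 to 9, Hmgn5 and Mpc1 were near their control values. Hmgn5, a nucleosome-binding protein gene, stood 1.43 above days 3 to 9 (SE 0.21, adjusted p = 1.79e-04) and 0.06 from control, with 6.70, 7.42 and 7.25 in control and 7.24, 7.20 and 7.13 on day 11. Mpc1, a subunit of the carrier that brings pyruvate into mitochondria, stood 0.59 above the mean of days 3 to 9 (SE 0.12, adjusted p = 0.00312) and at -0.05 from control, with group means of 7.48 in control, 6.44 on day 3, 7.11 on day 7 and 7.42 on day 11. Myc stood 0.55 above that mean (SE 0.09, adjusted p = 3.02e-04) and also 0.55 above control. The mTORC1 activator gene Rheb (1.07, adjusted p = 0.0119) and Pdcd10 (1.09, adjusted p = 0.0109) rose in this comparison. They stood 1.07 and 0.94 above control. Against days 3 to 9 the call of Rheb was lost without any single one of the 3 day 11 arrays (adjusted p up to 0.0948). That of Pdcd10 was lost without day 11 replicate 2 or 3 (up to 0.0968). Against day 9 alone Hmgn5 (1.09), Mpc1 (0.31), Myc (0.17), Rheb (0.37) and Pdcd10 (0.43) did not pass. Of 29 ribosome biogenesis genes 7 were higher than days 3 to 9 and 22 did not pass, and of 28 proteasome genes 4 were higher and 24 did not pass, against 2.98% of all genes higher. The medians of both lists were below control.

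Many division genes stood lower on day 11 than the mean of days 3 to 9. Of 19 cyclins and mitotic kinases 14 were lower (median -0.95), of 28 spindle genes 20 (median -0.76) and of 25 kinetochore genes 12 (median -0.57), against 2.91% of all genes. Kif2c (-1.55, SE 0.14, adjusted p = 7.32e-07), Kif11 (-1.51), Ccna2 (-1.47), Ccnb2 (-1.46), Mki67 (-1.40) and Dlgap5 (-1.37) led them. Against day 9 alone none of these 6 passed, Kif11 differing by -0.02, Dlgap5 by 0.00 and Ccna2 by 0.22. The median change of the cyclin and kinase list from control started at -0.31 on day 1, stood at -1.71 and -2.75 on days 3 and 4 and at -1.85 on day 5, and reached -3.34, -3.58 and -3.64 on days 7, 9 and 11. The kinetochore median was -2.71, -3.16 and -2.99 on these 3 days and the spindle median -2.96, -3.43 and -3.27, so both were lowest on day 9. Replication fork genes were lower in 9 of 30 cases (median -0.18). Mmp3 showed the largest fall of all named genes (-1.72, SE 0.16). Its group means were 8.87 in control, 8.98 and 9.13 on days 3 and 5, and 6.29, 5.45 and 5.76 on days 7, 9 and 11. Vim was lower by 0.47 (SE 0.08), S100a4 by 0.60 (SE 0.10) and Insig1, a brake on sterol synthesis, by 0.80 (SE 0.10). Mmp9 was lower by 1.26 (SE 0.19) and stood at its control level, having been 2.92 above control on day 5. Pdgfra was lower by 0.53 (SE 0.11) than on days 3 to 9 while still above control. Against day 9 alone Mmp3 (0.31), Vim (0.02), S100a4 (0.32) and Pdgfra (0.18) did not pass.

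**Figure D4:**
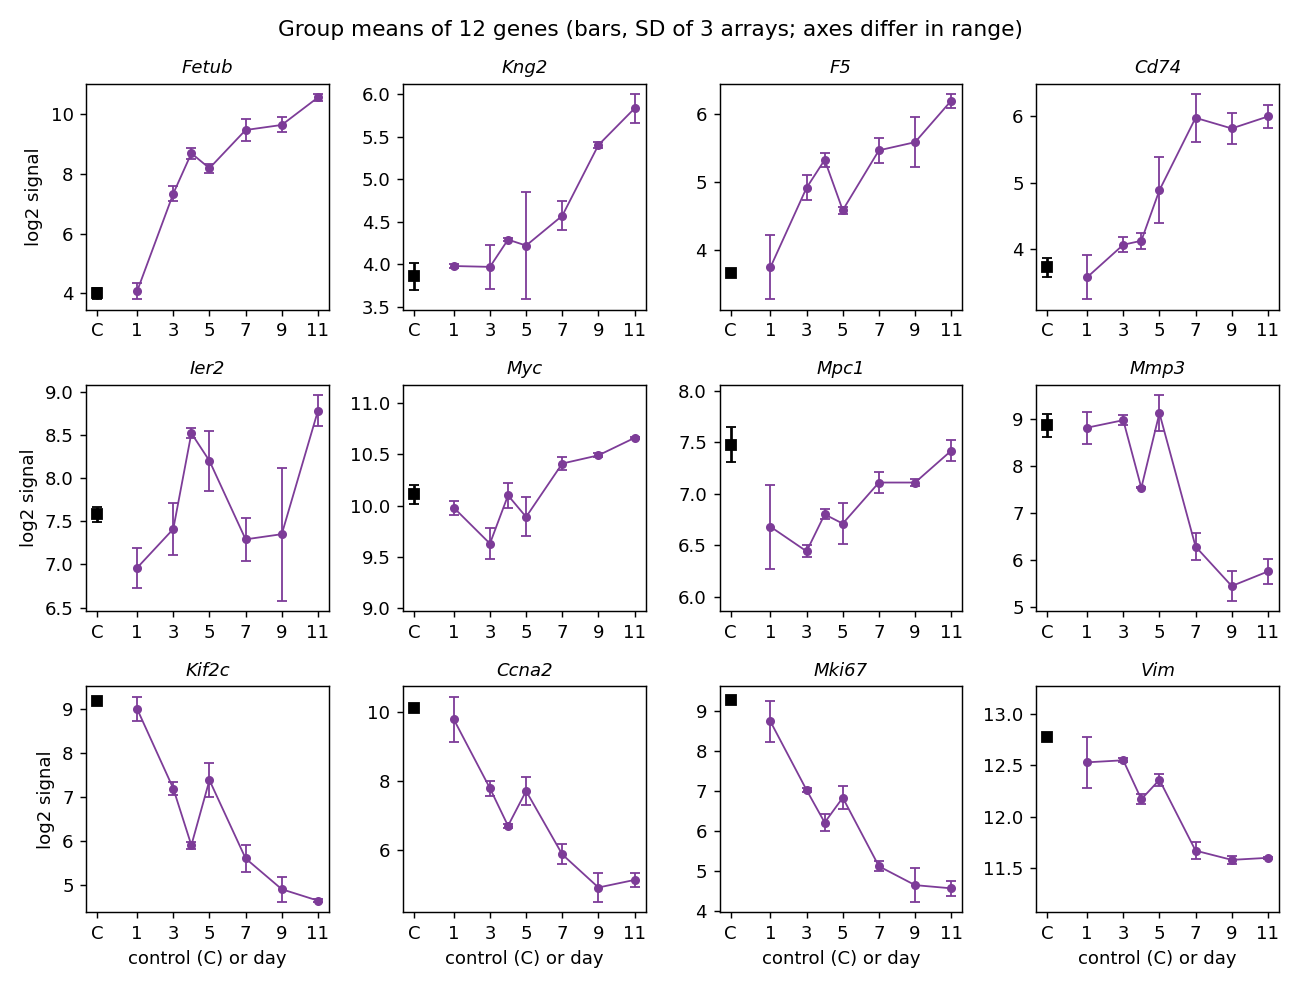
Group means of 12 genes (log2 signal, vertical, ranges differ between panels) in control (black square, C) and on each treated day (purple), with SDs of 3 arrays as bars. Fetub, Kng2 and F5 are highest on day 11, Mpc1 returns to 7.42 against 7.48 in control, and Kif2c ends at 4.65 against 9.18 in control.

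Between days 9 and 11 few genes passed. The test called 9 genes (0.0451%), 2 higher (0.01%) and 7 lower (0.0351%), 6 of the latter being named loci, with 1226 at an unadjusted p below 0.05 (limma, n = 3 and 3). Ier2, an immediate early gene, stood 1.42 higher on day 11, where it read 8.57, 8.87 and 8.89 against a day 9 mean of 7.35 (SD 0.77). The small nucleolar RNA Snord22 stood 1.31 higher. The microRNA genes Mir680-2 (-2.26) and Mir680-1 (-2.20), which belong to 1 family of similar copies, Igha (-1.75), Svs3a (-1.12), Nyx (-1.02) and Mir301b (-0.73) stood lower. None of these 6 passed on day 11 against the mean of days 3 to 9, with differences of -0.23 to -0.02. Probe sets with no symbol had medians of 3.84 to 3.99 on day 9 arrays and 3.73 to 3.82 on day 11 arrays. Of these probe sets 308 were called lower on day 11 than on day 9 and 7 higher. The cause was not tested. The calls of Ier2, Igha, Nyx, Svs3a and Snord22 were lost without single arrays of either day, or without day 1 replicate 1 and day 9 replicates 2 and 3 together (adjusted p up to 0.42, 0.21, 0.474, 0.511 and 0.132). The spread on day 9 was wider than on day 11, and without day 9 replicate 1 the count was 346, with array weights 6343 and without day 1 replicate 1 and day 9 replicates 2 and 3 183. With only the 6 arrays compared it was 0, with 1494 at an unadjusted p below 0.05.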

How the data were processed

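RNA was measured on 24 Affymetrix arrays, 3 for control and 3 for each of 7 treated times. The deposited values are log2 signals, for which the submitters' processing notes name Affymetrix Expression Console 1.1 and RMA. RMA includes quantile normalization, so a shift shared by all genes cannot be seen. Of 35557 probe sets, 21789 carried 1 symbol in the 2016 platform annotation, 1621 several and 12147 none. Symbols were updated through RefSeq, and the brightest probe set stood for each of 19938 genes.

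A model with 8 groups was fitted in limma 3.58.1 (R 4.3.3, 16 residual degrees of freedom), and p-values were adjusted by Benjamini-Hochberg over all genes for each contrast. Tested on simulated data, the comparison with control called 89.6% of genes changed by 2-fold but 32.8% of those changed by 1.41-fold. Only 67 genes were changed at each of these sizes, and all arrays of a gene had the same spread. The data differ in both respects, so these shares need not hold for them. The number of arrays limits the precision.

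Named genes were the 25 largest rises and falls without overlap, up to 3 rises and 3 falls of each of 63 lists, the 12 and 6 largest against days 3 to 9 and day 9, and a panel of 20 genes. Other genes named were picked from the lists after their values were seen. The comparison, the lists (1518 of 1628 memberships measured) and the tests were chosen with earlier results of these data known. Promoters were the 250 bases before RefSeq start sites of GRCm38.p6, with 19177 windows for 15614 genes. Alternatives covered scaling, array weights, probe set choice, filters, thresholds, replicate block and omitted arrays. Those for genes named against days 3 to 9 and day 9 were added after seeing the data.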

Additional observations from a re-analysis of the deposited data

Results flagged for a closer look

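Day 11 differed from the other treated days under the same treatment, by limma's test of the difference, in 1175 genes against days 3 to 9 and in 9 genes against day 9. Against days 3 to 9 the largest rises, on the log2 scale, were those of Fetub (1.89), Snord47 (1.65), Hmgn5 (1.43), H2bc4 (1.36), Kng2 (1.34), Pdcd10 (1.09), P2rx3 (1.08), Rheb (1.07), Gnpnat1 (1.07), Cd74 (1.02), Ier2 (1.02) and F5 (1.02). The largest falls were those of Mmp3 (-1.72), Kif2c (-1.55), Kif11 (-1.51), Ccna2 (-1.47), Ccnb2 (-1.46), Mki67 (-1.40), Dlgap5 (-1.37), Knl1 (-1.34), Pclaf (-1.32), Pbk (-1.31), Plk1 (-1.29) and Bub1 (-1.27). Of these rises and falls only that of Ier2 passed against day 9 alone. Against day 9 the named differences were those of Ier2 (1.42), Snord22 (1.31), Mir680-2 (-2.26), Mir680-1 (-2.20), Igha (-1.75), Svs3a (-1.12), Nyx (-1.02) and Mir301b (-0.73). The named genes lower than on day 9 did not pass against the mean of days 3 to 9.

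Probe sets outside the gene table also differed between day 11 and control. Of those with no gene symbol 1319 were called (10.9%), 718 higher and 601 lower, and of those with several symbols 371 (22.9%), 203 higher and 168 lower.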

How the results depend on the processing

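Against control, leaving out single arrays gave 4316 to 4522 called genes. Array weights gave 8337 and a 2-fold minimum 1285. With only the arrays compared 7027 genes were called, and 6892 without day 1 replicate 1 and day 9 replicates 2 and 3. How many genes passed against control thus depended on arrays outside that comparison. Against days 3 to 9 the count of 1175 became 5084 with array weights, 2346 with only the arrays compared, 534 at an adjusted p below 0.01 and 54 with a 2-fold minimum. It was 3724 without day 1 replicate 1 and day 9 replicates 2 and 3, and 427 to 1381 without single arrays. Against day 9 the count of 9 became 6343 with array weights, 524 with every probe set, 0 with only the arrays compared, 5 at an adjusted p below 0.01 and 183 without the same 3 arrays. Without single arrays it was 3 to 346, the highest without day 9 replicate 1. The causes were not tested.

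Deviations from the group mean correlated weakly between control and day 11 arrays of the same replicate number (0.156, 0.036 and 0.114). Such correlations cannot settle whether replicates were handled as matched sets. With a replicate block the 3 counts were 5112, 1168 and 7. Of 327 named changes, 43 that were called lost the call under at least 1 alternative. Of the values under alternatives 5294 kept direction and call, 199 lost the call, 1 gained it and 18 turned sign. The last were Krt18 (-0.04 after cyclic loess, -0.01 to 0.11 without single arrays), Ldhb (0.04 with array weights, 0.04 after loess, 0.03 centred on medians, -0.11 to 0.10 without single arrays), Mpc1 (0.00 centred, -0.14 to 0.03 without single arrays), Nlrc5 (0.15 as the mean of probe sets), Slc16a1 (0.03 centred, 0.00 without day 11 replicate 3), Slc16a3 (-0.29 to 0.03 without single arrays), Slc2a1 (-0.06 after loess, -0.06 to 0.06 without single arrays) and Txnip (0.15 with weights, 0.03 centred, -0.19 to 0.24 without single arrays). Apart from Nlrc5, none of these was called. Of list counts under alternatives, 1223 stayed within 1.5 times and 163 did not. Median centring moved the median of day 11 minus control by 0.0547 and loess by 0.0087. Low signals limit the size of a fold, not only its call.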
